A study of Mus musculus with 4 samples.

Results

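The cytochrome P450 genes of mouse nasal mucosa were taken as all genes of the array with a symbol made of Cyp, a family number, a subfamily letter and a member number, each read from a probe set that maps to 1 gene. The rule found 86 genes among 19938. P450 enzymes carry a haem group that splits oxygen and inserts 1 atom into a substrate, with electrons passed on by partner reductases, cytochrome b5 or ferredoxin. In the nose they sit mainly in the supporting cells and glands of the olfactory mucosa and in the respiratory epithelium, where they oxidise inhaled chemicals and odorants. Other families work on fatty acids, sterols, retinoic acid and steroid hormones.

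RNA of the mucosa that lines the septum and turbinates of mice aged 8 weeks, strain given as C56BL/6, was measured in 4 groups with 1 array each: Duox2-/- given flagellin, Duox2-/- given PBS, wild type (Duox2+/+) given flagellin and wild type given PBS, in 25 ul per nostril for 4 h. The flagellin solution held 5 ug/ml. Flagellin is the bacterial protein that builds flagella, and Duox2 is an epithelial oxidase that makes hydrogen peroxide. How the allele was made, whether an array holds 1 mouse or a pool, and the sex of the mice are not given in the sources used here. There are no replicates, and this number of arrays limits the precision of every value.

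Values are log2 probe set signals. The targeted gene Duox2 read 5.50 and 5.23 in the flagellin and PBS arrays labelled Duox2-/-, against 5.12 and 4.95 in the flagellin and PBS arrays labelled wild type. These are all low values and not lower under the knockout label, and no source used here says if the probe set lies where the gene was altered, so the genotypes stand here as labelled. Nasal markers were bright in all arrays: Omp of olfactory neurons read 11.85 to 12.16 and the odorant-binding protein gene Obp1a 12.96 to 13.19. Of 6 matched liver markers, Alb read 3.89 to 4.22 and Apoa1 6.31 to 6.81. Ttr, another of the 6, read 5.91 and 6.59 in the flagellin and PBS arrays labelled Duox2-/-, against 5.04 and 5.09 in wild type. The X-linked RNA Xist, made from the inactive X chromosome of females, read 10.31 to 10.49, and 3 genes of the Y chromosome (Eif2s3y, Kdm5d and Uty) read 3.05 to 4.53 over the 4 arrays. The interquartile range was 2.43 and 2.54 in the flagellin and PBS arrays labelled Duox2-/-, against 2.73 and 2.79 in the wild-type flagellin and PBS arrays.

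A gene counted as having signal when its highest value reached 6.52, the median of all values, which 28 of the 86 P450 genes and 12471 of all genes did. Of the 28, 23 also had a mean at or above that level. The other 5 (Cyp4f39, Cyp1b1, Cyp2c37, Cyp46a1 and Cyp2b19) passed through their higher arrays only, so that some difference between their arrays was built in. The 28 comprise all 3 genes of family 1, 11 of 44 of family 2, 1 of 6 of family 3 (Cyp3a13), 7 of 16 of family 4, 4 of 6 of bile acid and cholesterol side chain oxidation, 1 of 5 of vitamin D and retinoic acid turnover (Cyp26b1) and the orphan Cyp20a1. None of 5 steroid hormone synthesis genes had signal. Probe sets differ in affinity, so that these values do not rank transcripts against each other.

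The sequences before the start sites of Cyp2b10, Cyp4b1 and Cyp3a13 are shown because these genes passed the genotype test described further on. The other 2 that passed, Cyp4a12a and Cyp4a12b, are named only. Each run is the 250 bases before the annotated start, 5′ to 3′ on the gene's strand, from RefSeq (GRCm38.p6): chr7:25897408-25897657 on the + strand for Cyp2b10, chr4:115647722-115647971 on the - strand for Cyp4b1 and chr5:137921620-137921869 on the - strand for Cyp3a13. Capitals mark matches, on either strand, to GCGTG, the core bound by the aryl hydrocarbon receptor (AhR), to the CCAAT box (these letters), to the TATA box searched as TATAAA, or to the half-site of nuclear receptors searched as AGGTCA.
Cyp2b10: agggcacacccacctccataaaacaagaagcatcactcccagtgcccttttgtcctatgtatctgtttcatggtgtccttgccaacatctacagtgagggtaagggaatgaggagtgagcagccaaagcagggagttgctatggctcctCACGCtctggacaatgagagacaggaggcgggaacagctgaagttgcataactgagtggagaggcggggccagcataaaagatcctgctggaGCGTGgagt
Cyp4b1: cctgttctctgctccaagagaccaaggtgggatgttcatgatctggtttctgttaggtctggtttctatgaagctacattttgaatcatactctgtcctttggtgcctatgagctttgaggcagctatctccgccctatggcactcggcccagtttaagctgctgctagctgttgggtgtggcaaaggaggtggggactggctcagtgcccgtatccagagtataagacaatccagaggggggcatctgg
Cyp3a13: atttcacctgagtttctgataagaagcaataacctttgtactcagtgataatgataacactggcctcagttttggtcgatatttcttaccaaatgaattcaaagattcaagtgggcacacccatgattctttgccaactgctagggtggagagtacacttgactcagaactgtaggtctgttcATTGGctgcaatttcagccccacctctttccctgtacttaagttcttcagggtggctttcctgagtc
Cyp2b10 held 2 matches to the AhR core, Cyp3a13 held 1 match to the CCAAT box on the opposite strand and Cyp4b1 held none of the 4 motifs. The AhR core occurs in 28.2% of 32851 such windows of all genes and the CCAAT box in 33.8%. Of 21 P450 genes with signal that have a window, 8 held the AhR core and 9 the CCAAT box. The TATA box was in 4 of the 21 windows and the nuclear receptor half-site in 2, against 12.4% and 14% of all windows. A match is a description of these letters and no evidence of binding.

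**Figure D1:**
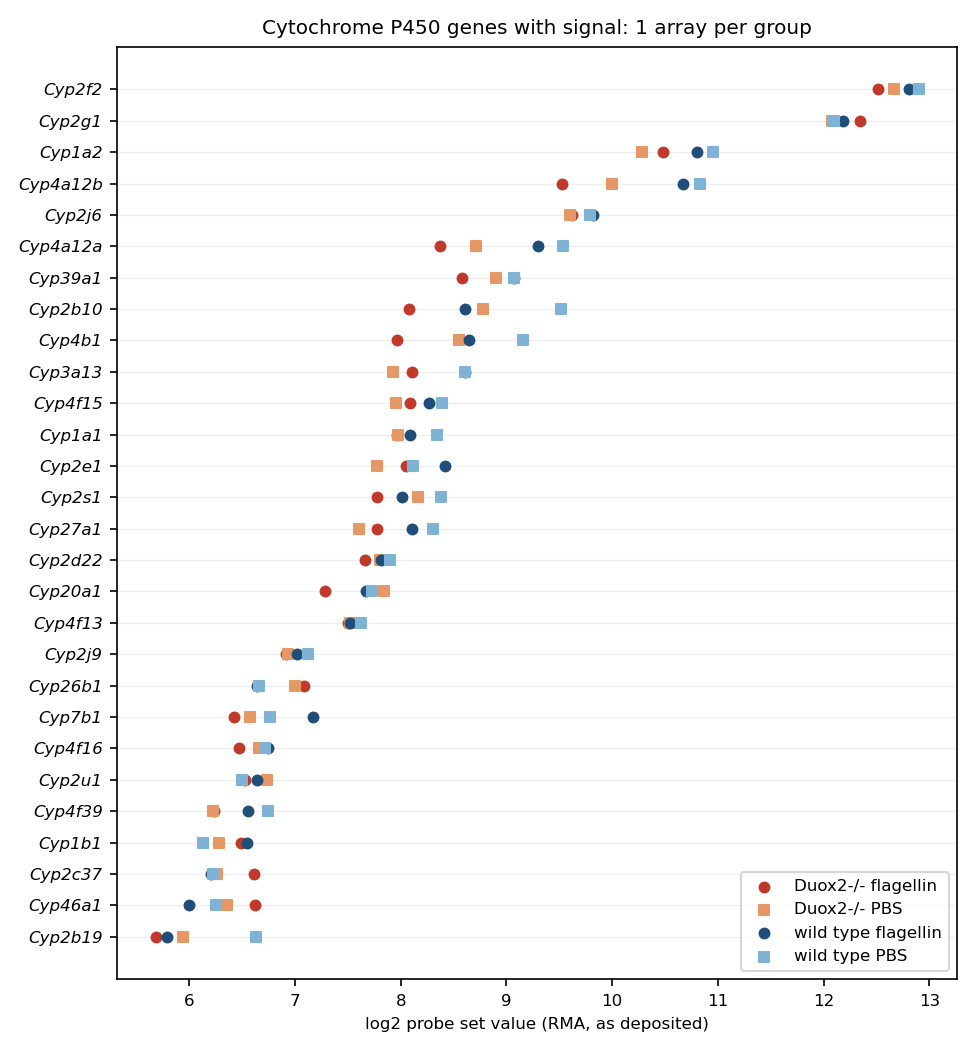
Log2 probe set value (x axis, RMA, as deposited) of the 28 P450 genes with signal, 1 point per array and gene: circles are flagellin and squares PBS, red and orange are arrays labelled Duox2-/- and dark and light blue wild type. For Cyp4a12b, Cyp4a12a, Cyp1a2 and Cyp3a13 both red and orange points lie left of both blue points, while the 4 points of Cyp2g1 span 12.08 to 12.35.

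Comparing the arrays labelled Duox2-/- with wild type asks how the family stood when the oxidase gene was reported as lost. Most P450 genes with signal read lower in the arrays labelled Duox2-/-. Of the 28, 24 lay below 0 after flagellin and 22 after PBS, where 66.8% and 57.7% of all genes with signal did. The median log2 difference of the 28 was -0.26 after flagellin and -0.20 after PBS, beside -0.12 and -0.04 over all genes with signal. For 17 of the 28 both arrays labelled Duox2-/- were below both wild-type arrays (39.2% of all genes with signal), and for 3 both were above (18.3%). The comparisons after flagellin and after PBS share no array.

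The 58 P450 genes without signal went the other way: their medians were 0.24 after flagellin and 0.20 after PBS, beside 0.28 and 0.21 over all 7467 genes without signal. A difference that changes sign with the level is thus present in all genes. Among genes with a mean at or above 7.5 the median was -0.18 after flagellin and -0.07 after PBS, and among the 18 P450 genes at that level it was -0.33 and -0.35. Its part in the P450 values was not tested.

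**Figure D2:**
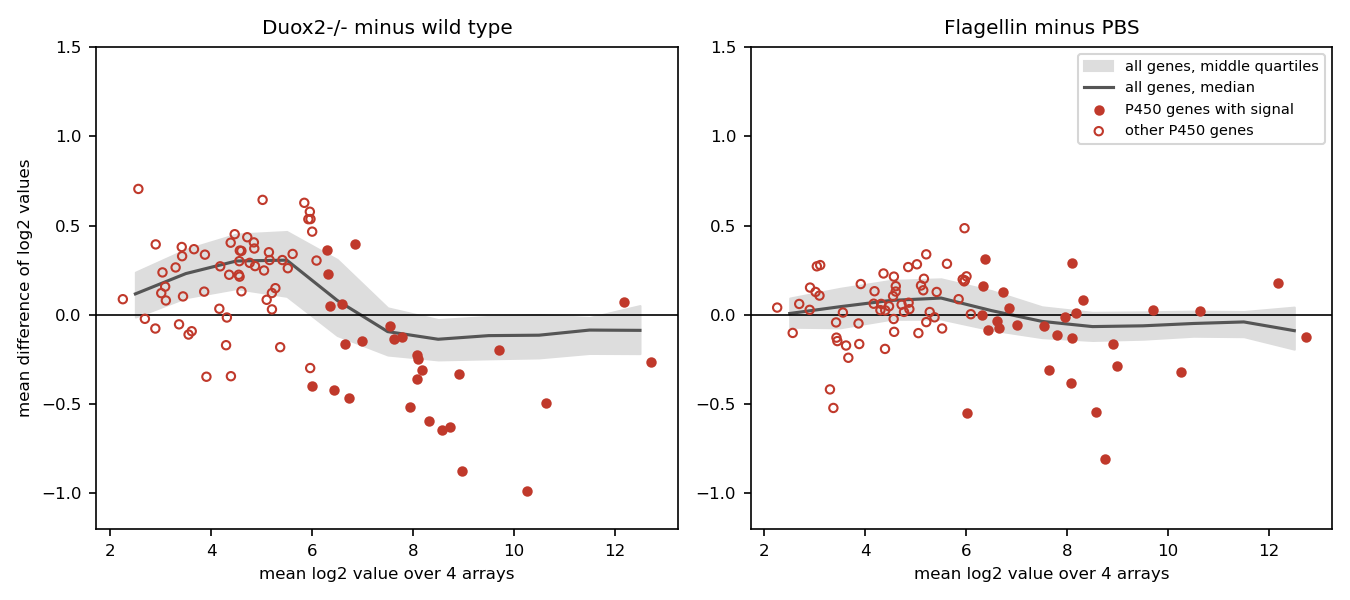
Mean difference of log2 values (y axis) against the mean log2 value over the 4 arrays (x axis), left for Duox2-/- minus wild type and right for flagellin minus PBS. The line and band are the median and middle quartiles of all genes per unit of level, filled points P450 genes with signal and open points other P450 genes. In the left panel the median of all genes runs from 0.31 at levels 5 to 6 to -0.14 at levels 8 to 9, and 23 of the 28 filled points lie below the median of their level.

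By size, 1 of the 28, Cyp4a12b, was at least 2-fold lower in the flagellin array labelled Duox2-/- than in wild type, and none of the 28 was in the PBS comparison. Over all genes with signal 1.65% and 0.281% were that much lower, and 0.353% and 1.13% that much higher. At 1.5-fold, 4 of the 28 were lower after flagellin (background 6.54%) and 8 after PBS (background 2%), and 1 and 0 were higher (4.57% and 3.12%). The 8 lower after PBS were Cyp1a2, Cyp27a1, Cyp2b10, Cyp2b19, Cyp3a13, Cyp4a12a, Cyp4a12b and Cyp4b1. The 4 lower after flagellin were Cyp4a12a, Cyp4a12b, Cyp4b1 and Cyp7b1, and the 1 higher was Cyp46a1. Cyp2b19 and Cyp46a1 are among the genes that passed the signal level through their higher arrays only.

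An additive limma model, in which genotype and treatment each shift a gene by 1 amount, gave a test over all 12471 genes with Benjamini-Hochberg adjustment. It has 1 residual degree of freedom per gene, the difference between the flagellin responses of the genotypes. To this limma adds a variance shared over all genes, with 7.48 prior degrees of freedom and a prior SD of 0.136. Each SE therefore reflects mostly the shared spread and little of the gene's own. For genotype it called 5 of the 28 lower (background 1.98%) and none higher (background 2.39%). These 5 were Cyp4a12b, Cyp4a12a, Cyp4b1, Cyp2b10 and Cyp3a13. The calls depend on the normalisation: 0 of the 28 were called after cyclic loess, when 1 gene of all was, and 2 (Cyp4a12a and Cyp4a12b) after centring each array on its median or after quantile renormalisation. Over all genes the split was 298 higher and 247 lower as deposited, and 53 and 108 after median centring. Unadjusted, 15 of the 28 had p under 0.05 in limma (background 23.2%).

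Family 4 holds fatty acid hydroxylases. Cyp4a12a and Cyp4a12b make the eicosanoid 20-HETE from arachidonic acid and are known in mouse kidney as genes with far more transcript in males. Cyp4a12b read 9.53 and 10.002 in the flagellin and PBS arrays labelled Duox2-/-, against 10.67 and 10.83 in the wild-type flagellin and PBS arrays. Cyp4a12a read 8.37 and 8.71, against 9.30 and 9.54 in the same order. For both genes each array labelled Duox2-/- was below each wild-type array, as for 39.2% of all genes with signal, and the groups did not overlap. The log2 difference was -1.14 after flagellin and -0.83 after PBS for Cyp4a12b, and -0.92 and -0.83 for Cyp4a12a. In limma Cyp4a12b fell by 0.99 ± 0.14 (SE) on the log2 scale in the arrays labelled Duox2-/- (adjusted p = 0.0137, range over the 6 alternatives 0.00866 to 0.0888), and Cyp4a12a fell by 0.87 ± 0.13 (adjusted p = 0.0152, range 0.0102 to 0.0959). The 2 genes are close copies, so that their probe sets may share signal and are not counted as independent.

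Cyp4b1, which oxidises fatty acids and also activates inhaled toxicants in airway tissue, read 7.97 and 8.55 in the flagellin and PBS arrays labelled Duox2-/-, against 8.65 and 9.16 in wild type. Both arrays labelled Duox2-/- were again below both wild-type arrays, by 0.68 after flagellin and 0.61 after PBS. Cyp4b1 fell by 0.65 ± 0.13 (SE, limma adjusted p = 0.0367, range over alternatives 0.0283 to 0.121). In the order of GRCm38.p6, Cyp4a12a, Cyp4a12b and Cyp4b1 lie in this order on chromosome 4. Cyp4a14, Cyp4a10 and Cyp4a31, which had no signal, lie between Cyp4a12b and Cyp4b1. Of the other 4 genes of family 4 with signal, all in the Cyp4f subfamily that hydroxylates leukotrienes and long fatty acids, differences ran from -0.32 to -0.02 after flagellin and from -0.52 to -0.05 after PBS, and none passed the test.

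Family 3 was represented by Cyp3a13, a broad drug and steroid oxidase found outside the liver. It read 8.10 and 7.93 in the flagellin and PBS arrays labelled Duox2-/-, against 8.61 and 8.61 in wild type. The groups did not overlap, and 39.2% of all genes with signal likewise lay below wild type without overlap. It fell by 0.59 ± 0.13 in limma (SE, adjusted p = 0.0449, range over alternatives 0.0341 to 0.154).

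Family 1 holds the classic targets of AhR. Cyp1a2, which oxidises aromatic amines, read 10.48 and 10.28 in the flagellin and PBS arrays labelled Duox2-/-, against 10.80 and 10.95 in wild type. Cyp1a1, the polycyclic hydrocarbon hydroxylase, read 7.97 and 7.97, against 8.09 and 8.34. In both genes the arrays labelled Duox2-/- were lower without overlap, as in 39.2% of all genes with signal. The difference was -0.32 after flagellin and -0.67 after PBS for Cyp1a2 and -0.12 and -0.37 for Cyp1a1. Neither gene passed limma (adjusted p = 0.0839 and 0.315). The flagellin difference of Cyp1a1 was 0.04 after cyclic loess and 0.02 after quantile renormalisation, each on the other side of 0. Cyp1b1, which oxidises oestrogens, read 6.49 and 6.28 in the flagellin and PBS arrays labelled Duox2-/-, against 6.55 and 6.13 in wild type, and its genotypes overlapped.

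Family 2 holds the enzymes known best from olfactory mucosa. Cyp2g1, a gene of olfactory supporting cells and Bowman's glands, read 12.35 and 12.08 in the flagellin and PBS arrays labelled Duox2-/-, against 12.19 and 12.10 in wild type, and the genotypes overlapped. Cyp2f2, which activates naphthalene in airway cells, read 12.51 and 12.67, against 12.81 and 12.90. It was lower in the arrays labelled Duox2-/- by 0.30 after flagellin and 0.23 after PBS and did not pass limma (adjusted p = 0.258). A probe set shared by Cyp2a5 and Cyp2a4, the coumarin and steroid hydroxylases of the olfactory mucosa, was outside the rule since it cannot tell these genes apart. It read 12.32 and 12.29 in the flagellin and PBS arrays labelled Duox2-/-, against 12.44 and 12.60 in wild type.

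Cyp2b10, the main target of the receptor CAR in mouse liver, read 8.08 and 8.78 in the flagellin and PBS arrays labelled Duox2-/-, against 8.60 and 9.51 in wild type. Within each treatment the array labelled Duox2-/- was the lower, by 0.53 after flagellin and 0.73 after PBS, but the genotypes overlap because the PBS array labelled Duox2-/- lies above the wild-type flagellin array. It fell by 0.63 ± 0.13 in limma (SE, adjusted p = 0.0406, range over alternatives 0.0307 to 0.147). Cyp2e1, the ethanol-oxidising P450, was lower in the arrays labelled Duox2-/- by 0.38 after flagellin and 0.34 after PBS, and Cyp2j6, of a subfamily that epoxidises fatty acids, by 0.20 and 0.19, neither passing limma (adjusted p = 0.14 and 0.401). After cyclic loess the flagellin values were -0.22 for Cyp2e1 and -0.03 for Cyp2j6.

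Among sterol and retinoid genes the directions differed. Cyp27a1, the mitochondrial sterol hydroxylase of bile acid synthesis, read 7.78 and 7.61 in the flagellin and PBS arrays labelled Duox2-/-, against 8.11 and 8.31 in wild type. Cyp39a1 and Cyp7b1, both oxysterol hydroxylases, were lower by 0.49 and 0.74 after flagellin and by 0.18 and 0.19 after PBS. All 3 lay below wild type without overlap, as did 39.2% of all genes with signal, and limma's adjusted p was 0.0767, 0.192 and 0.125. Cyp26b1, which degrades retinoic acid, was higher: it read 7.09 and 6.998 in the flagellin and PBS arrays labelled Duox2-/-, against 6.64 and 6.66 in wild type (limma 0.39 ± 0.13 SE, adjusted p = 0.115). Cyp46a1, the cholesterol hydroxylase of neurons, read 6.62 and 6.36, against 5.99 and 6.25, and Cyp2c37, of the epoxygenase subfamily, 6.62 and 6.26, against 6.20 and 6.22. These 3 genes were the ones with both arrays labelled Duox2-/- above both wild-type arrays (18.3% of all genes with signal), and none passed limma. After cyclic loess the PBS differences of Cyp46a1 and Cyp2c37 were -0.02 and -0.08, on the other side of 0, and both genes reached the signal level in the flagellin array labelled Duox2-/- alone. Cyp27b1, which activates vitamin D, had no signal, with 5.23 and 4.87 against 4.74 and 4.56.

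**Figure D3:**
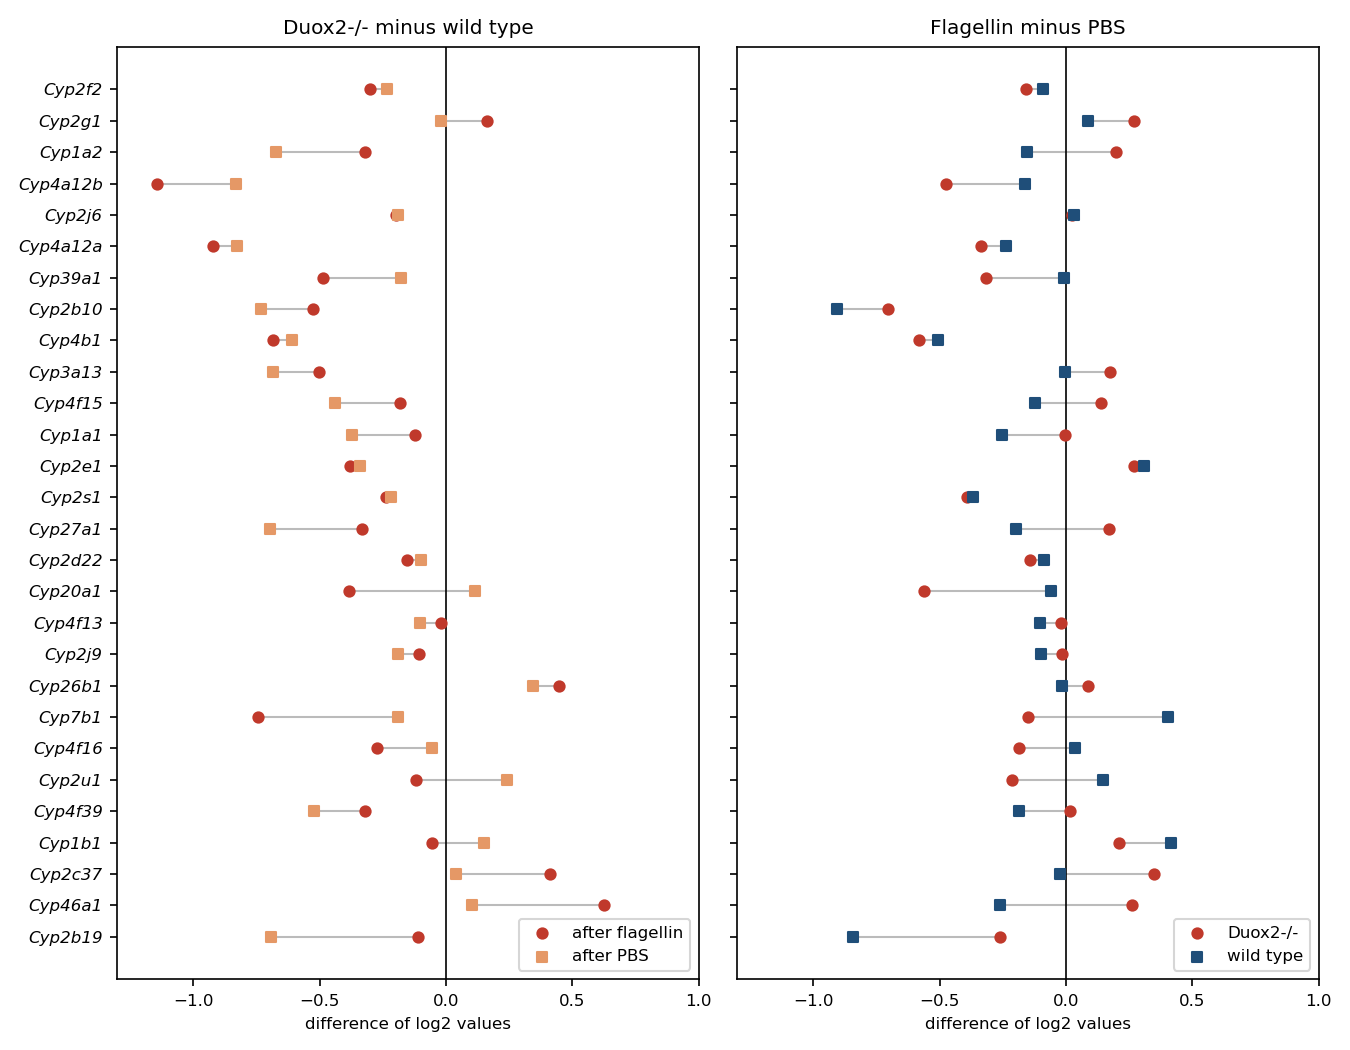
Differences of log2 values (x axes) of the 28 P450 genes with signal, left for Duox2-/- minus wild type (circles after flagellin, squares after PBS) and right for flagellin minus PBS (circles in arrays labelled Duox2-/-, squares in wild type). In the left panel both points of most genes lie left of 0, down to -1.14 for Cyp4a12b, and in the right panel Cyp2b10 lies farthest left in both genotypes, at -0.70 and -0.91.

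Comparing flagellin with PBS asks what the bacterial protein did to the family within 4 h. No P450 gene passed the test for flagellin. None of the 28 was 2-fold higher or lower in either genotype: over all genes with signal 0.176% were higher and 0.505% lower in the arrays labelled Duox2-/-, and 0.922% and 0.0561% in wild type. At 1.5-fold, 1 of the 28 was lower in the arrays labelled Duox2-/- (Cyp2b10, background 3.13%) and 2 in wild type (Cyp2b10 and Cyp2b19, background 0.569%), and none was higher (0.994% and 2.36%). In the arrays labelled Duox2-/- 16 of the 28 lay below 0 and in wild type 21, where 62.2% and 50.4% of all genes with signal did. The median was -0.02 in the arrays labelled Duox2-/- and -0.09 in wild type, beside -0.07 and -0.00 over all genes with signal. Over the alternatives the first ran from -0.14 (filter on the mean) to 0.04 (no filter), so that its sign is not settled.

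The additive limma model called 0 of the 28 for flagellin, with a background of 0.241% higher and 0.0401% lower, and 6 of the 28 had an unadjusted p under 0.05 (background 6.45%). For 5 of the 28 both flagellin arrays were below both PBS arrays (background 13%): Cyp2b10, Cyp2s1, Cyp2b19, Cyp20a1 and Cyp4f13. For Cyp1b1 and Cyp2g1 both were above (background 7.81%). Neither count is far from its background.

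Cyp2b10 had the lowest difference of the 28 in each genotype. It was lower after flagellin by 0.70 in the arrays labelled Duox2-/- and by 0.91 in wild type (limma -0.80 ± 0.13 SE, adjusted p = 0.0655, range over alternatives 0.0514 to 0.329). Cyp4b1 was lower by 0.58 and 0.51 (limma -0.54 ± 0.13 SE, adjusted p = 0.248). Cyp2s1, an epithelial P450 inducible through AhR, read 7.77 after flagellin against 8.16 after PBS in the arrays labelled Duox2-/-, and 8.01 against 8.38 in wild type. Its differences of -0.39 and -0.37 were close in size, and it did not pass limma (adjusted p = 0.549).

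Cyp2b19, a fatty acid epoxygenase of keratinocytes, read 5.68 after flagellin against 5.94 after PBS in the arrays labelled Duox2-/-, and 5.79 against 6.63 in wild type. The wild-type PBS array alone stands apart here and alone carries the gene past the signal level, so that the differences of -0.84 for flagellin in wild type and -0.69 for genotype after PBS rest on the same array. Cyp2b10 too was highest in wild-type mucosa given PBS. By the order of GRCm38.p6, Cyp2s1, Cyp2b10, Cyp2b19, Cyp2g1 and Cyp2f2 lie in this order on chromosome 7. Their limma flagellin estimates in that order were -0.38, -0.80, -0.55, 0.18 and -0.12. P450 genes without signal lie between some of them, such as Cyp2b13, Cyp2b9 and Cyp2b23 between Cyp2b10 and Cyp2b19.

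Cyp2e1 was higher after flagellin by 0.27 in the arrays labelled Duox2-/- and 0.31 in wild type, and Cyp1b1 by 0.21 and 0.42. Cyp2g1 was higher by 0.27 and 0.09. Cyp20a1, a P450 with no settled substrate, was lower by 0.56 in the arrays labelled Duox2-/- and by 0.06 in wild type. None of these 4 passed limma, with adjusted p from 0.744 to 0.932.

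Markers of several cell types differed with treatment beside these values, among them those of neutrophils, which enter inflamed airways. The mean of 13 neutrophil markers was 7.25 after flagellin against 7.06 after PBS in the arrays labelled Duox2-/-, and 7.81 against 6.61 in wild type. Lcn2, an iron-trapping protein of neutrophils and epithelium, rose: it read 10.60 against 9.28 in the arrays labelled Duox2-/- and 11.61 against 9.88 in wild type (limma adjusted p = 0.00988). Of the 13 markers 10 had signal and were tested, and Lcn2 alone passed. The mean of 10 squamous markers was 5.63 after flagellin against 5.95 after PBS in the arrays labelled Duox2-/-, and 7.27 against 6.31 in wild type. None of the 9 with signal passed for flagellin. The mean of 10 skeletal muscle markers was 5.70 against 7.81 and 6.69 against 5.19 in the same order. All 12 olfactory neuron markers were higher after flagellin in the arrays labelled Duox2-/-, and 11 were in wild type. Median differences in these genotypes were -0.64 and -0.01 for endothelium markers and -0.48 and 0.26 for fibroblast markers. No gene of these further lists passed for flagellin. The part of these in the P450 values was not tested.

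**Figure D4:**
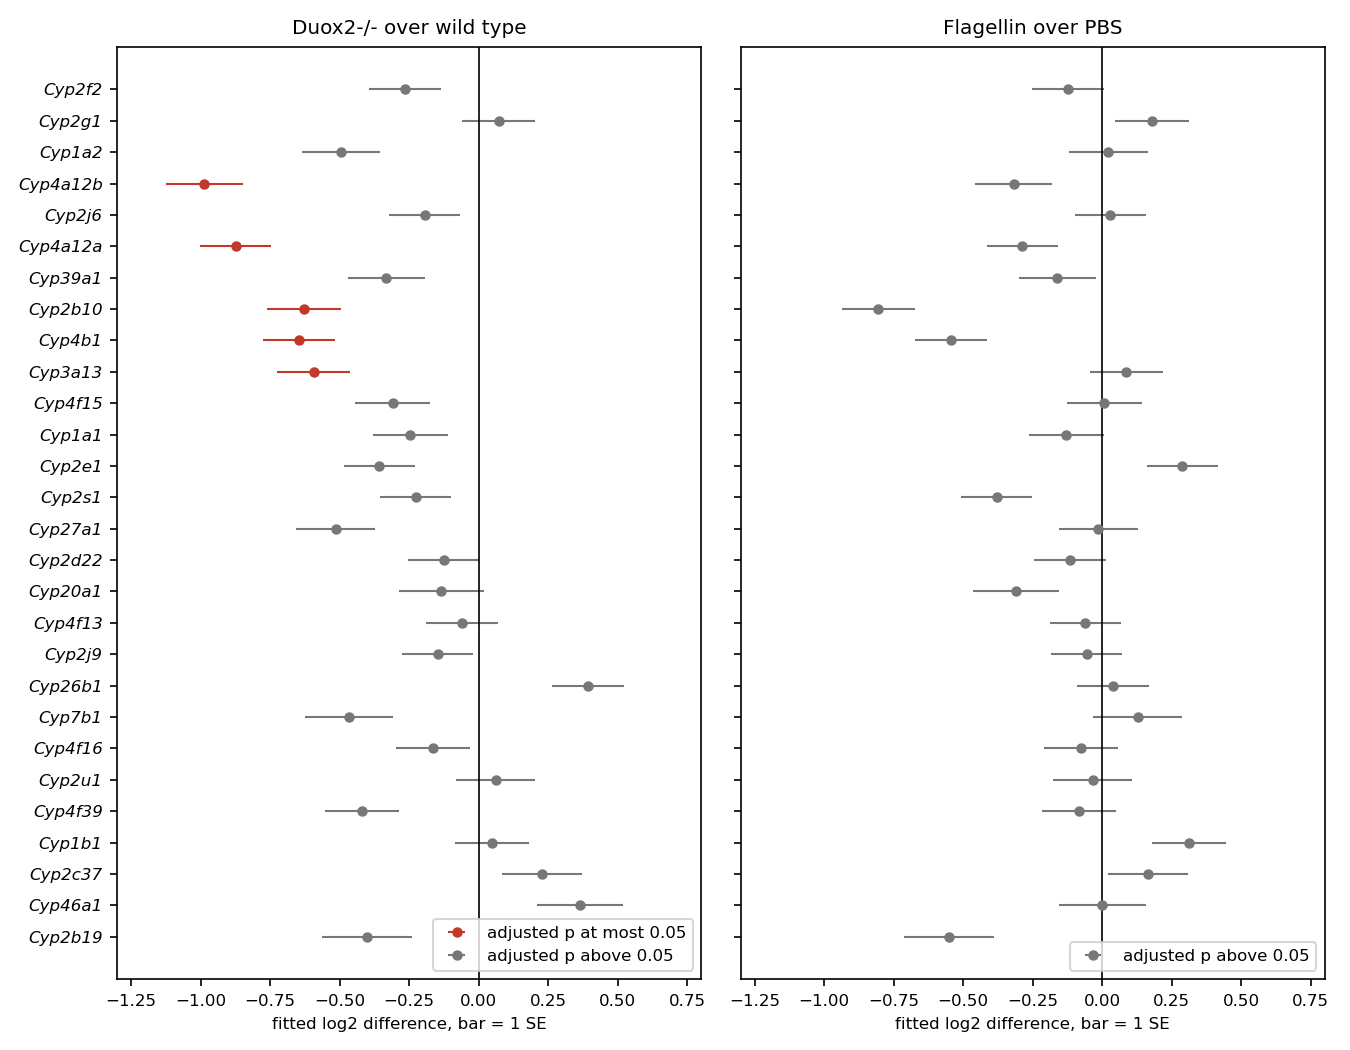
Estimates of the additive limma model for the 28 P450 genes with signal, left Duox2-/- over wild type and right flagellin over PBS, as log2 differences (x axes) with bars of 1 SE. Red points have an adjusted p at most 0.05: the left panel has 5, from Cyp3a13 at -0.59 to Cyp4a12b at -0.99, and the right panel has none, its lowest point being Cyp2b10 at -0.80.

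The difference between the flagellin responses, arrays labelled Duox2-/- minus wild type, asks whether the response depended on genotype. None of the 28 reached 2-fold (background 0.136% higher and 1.44% lower) or 1.5-fold (1.26% and 5.83%). The median was 0.04 (-0.02 to 0.11 over the alternatives), with 14 of the 28 below 0, beside -0.07 and 59.9% over all genes with signal. The 4 highest were Cyp2b19 at 0.58, Cyp46a1 at 0.52, Cyp2c37 at 0.37 and Cyp27a1 at 0.36. Cyp2b19 reached the signal level only in the wild-type PBS array, and Cyp46a1 and Cyp2c37 only in the flagellin array labelled Duox2-/-. Each of these arrays raises this difference, so that some of the value of these genes was built in by the signal rule. The 4 lowest were Cyp7b1 at -0.56, Cyp20a1 at -0.50, Cyp2u1, a fatty acid hydroxylase, at -0.36 and Cyp4a12b at -0.31. With 1 array per group these differences have no error of their own.

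No matched partner of the P450 enzymes passed limma for genotype or flagellin, and most read lower in the arrays labelled Duox2-/-. Among all genes with a mean at or above 7.5, 79% lay below 0 for genotype after flagellin and 64.8% after PBS. Of 9 listed electron transfer genes 7 were matched, and the P450 reductase gene Por was not among the genes read. All 7 had signal, and 6 were below 0 after flagellin and 7 after PBS, with medians of -0.25 and -0.39. Cyb5a, cytochrome b5 itself, read 10.61 and 10.58 in the flagellin and PBS arrays labelled Duox2-/-, against 10.85 and 10.96 in wild type. All 12 matched genes of haem supply and turnover were below 0 in both genotype comparisons, with medians of -0.26 after flagellin and -0.22 after PBS. Alas1, the first enzyme of haem synthesis, read 10.50 and 10.56 in the flagellin and PBS arrays labelled Duox2-/-, against 10.71 and 11.25 in wild type. It was highest in the wild-type PBS array. Hmox1, which breaks haem down, read 6.98 and 6.93, against 7.65 and 7.33, and Blvrb, a biliverdin reductase, 7.80 and 7.39, against 8.11 and 8.20.

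Regulators of P450 genes were also read. Of 23 matched, 15 had signal, and none passed limma. The median genotype difference of these 15 was -0.20 after flagellin and -0.13 after PBS. Ahr read 7.85 and 8.05 in the flagellin and PBS arrays labelled Duox2-/-, against 8.24 and 8.20 in wild type, and Nr1i3, the gene of CAR, had no signal, with 5.17 and 4.82 against 4.62 and 4.52. Foxa1, an epithelial forkhead factor, was lower by 0.65 after flagellin and 0.26 after PBS, and its relative Foxa2 was higher by 0.61 and 0.37. Of 4 AhR targets outside the family 3 had signal and 1 passed: Aldh3a1, an aldehyde dehydrogenase, read 8.91 and 9.57 in the flagellin and PBS arrays labelled Duox2-/-, against 10.16 and 10.42 in wild type (limma adjusted p = 0.0137). Nqo1 and Tiparp differed by 0.02 and -0.55 after flagellin and by -0.40 and -0.22 after PBS.

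Marker genes of cell types were read beside the genotype comparisons. In bulk tissue fewer cells of a type and less RNA per cell cannot be told apart. The mean level of 7 basal cell markers was 7.30 and 7.70 in the flagellin and PBS arrays labelled Duox2-/-, against 8.22 and 8.18 in wild type, and 3 of the 7 passed limma as lower. None of 7 matched markers of olfactory supporting cells passed, nor any of the 12 with signal among 14 ciliated cell markers. For the supporting cells the mean was 9.32 and 9.39, against 9.56 and 9.72, for the ciliated cells 7.32 and 7.45, against 7.52 and 7.68, and for 11 club and secretory markers 8.52 and 8.50, against 8.79 and 8.76. Of the 8 club and secretory markers with signal, 2 passed as lower: Aldh1a1 and Aldh3a1 (limma adjusted p = 0.0478 and 0.0137). For 11 gland markers it was 10.64 and 10.58, against 9.58 and 9.27, but the median difference was -0.09 after flagellin and -0.13 after PBS. Bpifb9a, Bpifb9b and Bpifb5 passed as higher and carry the mean, 1 passed as lower, and after PBS only these 3 of the 11 lay above 0. Bpifb9a alone read 12.24 and 12.24 in the flagellin and PBS arrays labelled Duox2-/-, against 7.56 and 5.47 in wild type. Olfactory neuron markers, 12 of them, averaged 10.43 and 10.11, against 10.26 and 10.16, and none passed. Of 10 squamous markers 9 had signal and 3 passed as lower, and of 11 macrophage markers 10 had signal and 2 passed as lower. Of 6 matched liver markers 2 had signal, and Ttr passed as higher (limma adjusted p = 0.0141). The skeletal muscle list averaged 5.70 and 7.81, against 6.69 and 5.19, and did not follow genotype. The part of these in the P450 differences was not tested.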

How the data were processed

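The authors deposited log2 values of 35556 Affymetrix probe sets for 4 arrays, made by RMA in Affymetrix Expression Console 1.1, per the submitters' processing notes. RMA draws all arrays to 1 distribution, and a remaining difference in spread can move bright and dim genes in opposite directions. No source used here states the genome build of the probe sets. GEO's platform annotation gave 21789 probe sets 1 gene, 1621 several and 12146 none. A gene was read from its single-gene probe set with the highest mean, and genes were kept if their highest value reached the median of all values. Differences were computed per pair of arrays. The only test was an additive model in limma 3.58.1 (R 4.3.3) with Benjamini-Hochberg adjustment over 12471 genes. A run on simulated data held flagellin shifts only, with equal noise in every array and no difference that changes with level. That run therefore cannot speak for the genotype calls. The model's p-values rest on the difference between the flagellin responses of the genotypes and on a variance shared over all genes. They hold no measure of the spread between replicate arrays or mice. Python 3.11.15, pandas 2.3.3, numpy 2.4.6 and matplotlib 3.10.9 did the rest. P450 genes named are the 10 with the highest mean, the 4 highest and 4 lowest of each difference, all that passed a threshold and a few fixed by name. Of other pathway genes, those past 1.5-fold and a few fixed by name qualified, and the text gives some of them. The members, lists and tests were chosen with earlier results of these data known. Alternatives were 3 normalisations, other filters, the mean over probe sets and a 1.5-fold size.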

Additional observations from a re-analysis of the deposited data

Results flagged for a closer look

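Several genes had flagellin responses of opposite sign in the genotypes, both beyond the prior SD of limma (0.136). With 1 array per group the difference between responses was not tested. Cyp46a1 differed by 0.26 in the arrays labelled Duox2-/- and -0.26 in wild type, a difference of 0.52. This gene reached the signal level in the flagellin array labelled Duox2-/- alone, so that some of its difference was built in. Cyp27a1 had 0.17 and -0.20 (difference 0.36), and Cyp1a2 had 0.20 and -0.15 (difference 0.35). In the other direction Cyp7b1 had -0.15 in the arrays labelled Duox2-/- and 0.40 in wild type (difference -0.56), and Cyp2u1 had -0.21 and 0.15 (difference -0.36). Outside the symbol rule, Cyp51, the sterol demethylase of cholesterol synthesis, had -0.32 and 0.34 (difference -0.66). Idi1, of the same pathway, had -0.47 and 0.19 (difference -0.66), and Srebf1, a lipid synthesis regulator, 0.16 and -0.32 (difference 0.48).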

How the results depend on the processing

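Of the counts and medians over the P450 genes, 66 values stayed within tolerance (1.5 times for a count, 0.136 for a log2 value, the prior SD of limma) and 11 moved. Of the medians within tolerance 4 turned sign. No P450 gene had several probe sets, so that the mean over probe sets could not change a P450 difference. Its entries within tolerance for medians, 2-fold counts and the differences of named genes below were therefore fixed in advance. At 1.5-fold in place of 2-fold the counts were 5 for genotype after flagellin, 8 for genotype after PBS, 1 for flagellin in the arrays labelled Duox2-/- and 2 for flagellin in wild type. After cyclic loess 0 genes were 2-fold apart by genotype after flagellin. Without the filter on low values the median genotype differences were 0.10 after flagellin and 0.11 after PBS, on the other side of 0, since the 58 genes without signal then enter. The additive genotype count of 5 became 2 after median centring, 2 after quantile renormalisation, 0 after cyclic loess and 11 (6 higher, 5 lower) without the filter. Over all genes the additive genotype counts were 298 higher and 247 lower as deposited, 144 and 140 after quantile renormalisation, and 1 and 0 after cyclic loess, when 2340 had an unadjusted p under 0.05 in limma. For flagellin, limma called 0 P450 genes under each of the 6 alternatives. Among named genes 431 differences stayed within tolerance, of which 23 turned sign, and 29 moved, of which 2 did. The tolerance is wide beside small differences. No paired analysis was possible because each group has 1 array and the labels give no replicate numbers, and no replicate could be left out. Signal near background limits the 58 dim genes.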

Other observations

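Cholesterol synthesis, which uses the P450 Cyp51, was read from 15 matched genes, all with signal. Their median genotype difference was -0.43 after flagellin and -0.15 after PBS, and none passed limma. Insig1, which holds back the sterol sensor in the endoplasmic reticulum, read 10.10 and 10.09 in the flagellin and PBS arrays labelled Duox2-/-, against 10.53 and 10.87 in wild type (limma adjusted p = 0.0509). Lss, the lanosterol synthase, read 7.16 and 7.43, against 7.75 and 7.88 (limma adjusted p = 0.061). Cyp51 itself read 6.85 and 7.17 in the flagellin and PBS arrays labelled Duox2-/-, against 7.47 and 7.13 in wild type, so that it was lower by 0.63 after flagellin and higher by 0.03 after PBS. A further 7 probe sets map to several genes with a P450 among them, and 9 P450 symbols are found only there.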
